A study of Mus musculus with 4 samples.

Results

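A set of 49 marker genes of fat tissue cells other than lymphocytes was read in γδ T cells sorted from mouse epididymal fat, as a check of how much RNA of those other cells the sorts carried. The 49 genes are 13 adipocyte, 15 stromal, 9 endothelial and 12 macrophage markers. They were chosen by symbol, and all 49 matched a row among the 46799 deposited loci, where symbols stand in capitals (ADIPOQ, PDGFRB, PECAM1, CD68) and are written here in the usual mouse form. The tested cells were PLZF+ γδ T cells (2 libraries, A7 and B7), set against PLZF- γδ T cells (2 libraries, A6 and B6). PLZF, encoded by Zbtb16, is the transcription factor of innate-like lymphocytes, and both kinds of cell came from male C57Bl/6 mice with a GFP reporter of PLZF, aged 16 to 22 weeks. Each library was a pool of 10 mice, amplified by SMART-seq2, which copies whole transcripts from small samples. Sort antibodies, gates and any sharing of mice between libraries are unknown here. Library names are codes from the table columns, without a replicate number.

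Fat depots hold far more than fat cells. Adipocytes store triglyceride in a droplet coated by perilipins and secrete adiponectin, leptin and adipsin. Stromal cells, among them fibroblasts and adipocyte precursors, lay down fibrillar collagen and small proteoglycans such as decorin. Endothelial cells line the vessels and are marked by junction proteins and receptors of vascular growth factors. Macrophages scavenge debris and make complement C1q. Lymphocytes are freed from this tissue by digestion and then sorted, so transcripts of these neighbours can enter a sorted library with whole cells, cell fragments or free RNA. Some genes on such lists, PECAM-1 among them, are also used by lymphocytes.

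Estimated depth without the ribosomal RNA precursor was 1837511 and 2035066 reads in PLZF+ libraries A7 and B7, against 744569 and 981885 reads in PLZF- libraries A6 and B6. Levels are given as normalized counts, the estimated reads of a gene divided by a factor for its library. In that unit 1 read was worth 0.619 in A7 and 0.558 in B7, against 1.69 in A6 and 1.22 in B6. The ribosomal RNA precursor Rn45s was listed at 0 in B7 alone, so a 0 in these tables can be a failed estimate. The housekeeping gene B2m was level, with 5007 and 4589 normalized counts in A7 and B7, against 4707 and 4320 in A6 and B6. Actb, another, had 9090 and 10645 normalized counts in A7 and B7, against 7708 and 9759 in A6 and B6. Gapdh, also a housekeeping gene, had only 58.8 and 62.5 in A7 and B7, against 50.6 and 63.4 in A6 and B6. Why Gapdh stood so far under Actb was not tested, and low values of other genes may share that limit. Zbtb16 had 2899 and 2921 normalized counts in A7 and B7, against 310.4 and 699 in A6 and B6, and was higher in PLZF+ cells (adjusted p = 0.0005, limma), as the sort labels have it. By limma 229 of 9282 genes passed as higher in PLZF+ cells and 463 as lower. Without A7, B7, A6 or B6 in turn, the number higher was 29, 20, 99 and 245, and the number lower 266, 205, 100 and 225.

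Most of the markers gave no read at all. Of the 49, 26 were listed at 0 in all 4 libraries, and 23 had a read in at least 1. Over all genes, with loci of one name summed, 15841 of 46165 had a read in at least 1 library. A 0 is thus common in these data at large and is no measure of purity by itself. A count of 0 allows up to 3 reads, which is 1.63 and 1.47 RPM (reads scaled to a common library size, without Rn45s) in A7 and B7, and 4.03 and 3.06 RPM in A6 and B6. Every library had a read of 6 members, namely Lipe, Cd36, Pnpla2, Gsn, Pecam1 and Eng. The number of members with a read was 15 and 12 in A7 and B7, against 14 and 13 in A6 and B6. To set libraries of different depth side by side, members were also counted above 5.06 normalized counts, the worth of 3 reads in the shallowest library. There were 9 and 4 such members in A7 and B7, against 10 and 10 in A6 and B6. PLZF+ library B7, the deepest, had the fewest. The cutoff takes more reads in a deeper library, and Lipe missed it in B7 with 9 reads (5.02 normalized counts). The share of all genes above the cutoff was not computed, so nothing about the markers is read from these counts.

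**Figure D1:**
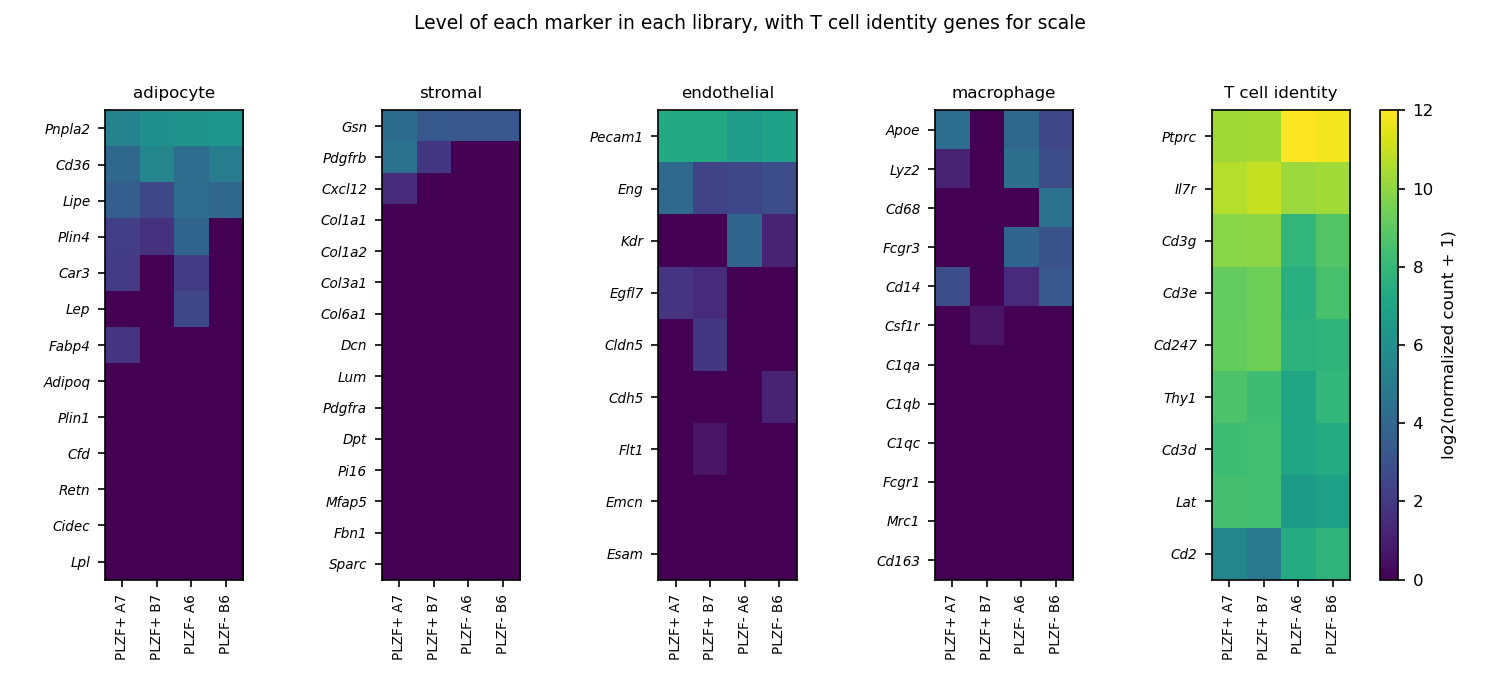
Log2(normalized count + 1) of the 49 markers by class and of 9 T cell identity genes, one column per library, PLZF+ libraries A7 and B7 left of PLZF- libraries A6 and B6, one row per gene. Rows are ordered by mean level, and 26 marker rows are at 0 in all 4 libraries, while every T cell identity gene is above 0 in each.

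The genes that define the adipocyte were at or near 0. Adipoq and Cfd, which encode adiponectin and adipsin, were listed at 0 in all 4 libraries, as were Plin1, the droplet-coating perilipin, Cidec, a droplet fusion protein, Retn, which encodes resistin, and Lpl, which encodes lipoprotein lipase. Lep, which encodes leptin, had 3 reads in A6 and 0 in the other libraries. Fabp4, a fatty acid carrier that is among the most abundant transcripts of fat cells, had 4 reads in A7 and 0 elsewhere. Car3, a carbonic anhydrase, had 5 and 0 reads in A7 and B7, against 2 and 0 in A6 and B6. Plin4, another perilipin, had 6 and 4 reads in A7 and B7, against 8 and 0 in A6 and B6, and its exons overlap those of Hdgfl2 on the other strand. No library held reads of all 4, and both subsets held some.

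Pnpla2, Cd36 and Lipe, adipocyte-list genes of fatty acid handling, were present throughout. Pnpla2, on chromosome 7 (141455198 to 141460743, GRCm38), encodes adipose triglyceride lipase, the enzyme that takes the first fatty acid off stored triglyceride, and it is used by many cell types. It had 40.9 and 64.2 normalized counts in A7 and B7, against 74.2 and 79.3 in A6 and B6. Both PLZF+ values lay under both PLZF- values, but the PLZF+ libraries differed from each other by more than B7 did from A6. The log2 fold change of -0.57 (95% interval -1.53 to 0.38) did not pass (adjusted p = 0.505, limma). Cd36, a fatty acid and lipoprotein receptor of fat cells, vessels and macrophages, had 14.9 and 43.5 normalized counts in A7 and B7, against 18.6 and 32.9 in A6 and B6. The 2 PLZF+ libraries enclosed the PLZF- ones, and the log2 fold change was 0.05 (95% interval -1.46 to 1.56, adjusted p = 0.983, limma). Its sign turned when B7 (-0.70) or A6 (-0.35) was left out. Lipe encodes hormone-sensitive lipase, which acts after Pnpla2. It had 11.1 and 5.02 normalized counts in A7 and B7, against 18.6 and 15.9 in A6 and B6, and exons of 4732471J01Rik overlap it on the other strand. Its log2 fold change was -1.09 (95% interval -3.16 to 0.99, adjusted p = 0.573, limma). Both PLZF+ values lay under both PLZF- values, and the difference did not pass.

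Structural genes of stromal cells were absent from the reads. The collagen genes Col1a1, Col1a2, Col3a1 and Col6a1, the proteoglycan genes Dcn and Lum, the fibroblast receptor gene Pdgfra and the matrix genes Dpt, Mfap5, Fbn1 and Sparc were all listed at 0 in 4 of 4 libraries, as was Pi16, a marker of precursor-rich fibroblasts. These are 12 of the 15 stromal markers. Cxcl12, the chemokine of stromal niches, had 3 reads in A7 and 0 elsewhere. Pdgfrb, a receptor of pericytes and fibroblasts, had 36 and 5 reads in A7 and B7, against 0 and 0 in A6 and B6, which is 22.3 and 2.79 normalized counts. The PLZF+ mean was 2.88 times the worth of 3 reads per PLZF- library, and most of it came from A7. Of 6 mural cell genes, which pericytes and smooth muscle express, Rgs5, Myh11, Cspg4 and Des were listed at 0 in all 4 libraries, and Acta2 had 2.79 and Notch3 0.558 normalized counts in B7 with 0 elsewhere. Pdgfrb averaged under the filter of 10 normalized counts, and without a filter its adjusted p was 0.242 (limma).

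Gsn, on chromosome 2 (35256380 to 35307892), was the one stromal-list gene seen in every library. It encodes gelsolin, an actin-severing protein found in most cells and secreted into plasma. It had 18.0 and 8.93 normalized counts in A7 and B7, against 8.44 and 8.54 in A6 and B6. B7 stood next to the PLZF- libraries and A7 above all 3. The log2 fold change was 0.53 (95% interval -1.66 to 2.72, adjusted p = 0.810, limma).

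**Figure D2:**
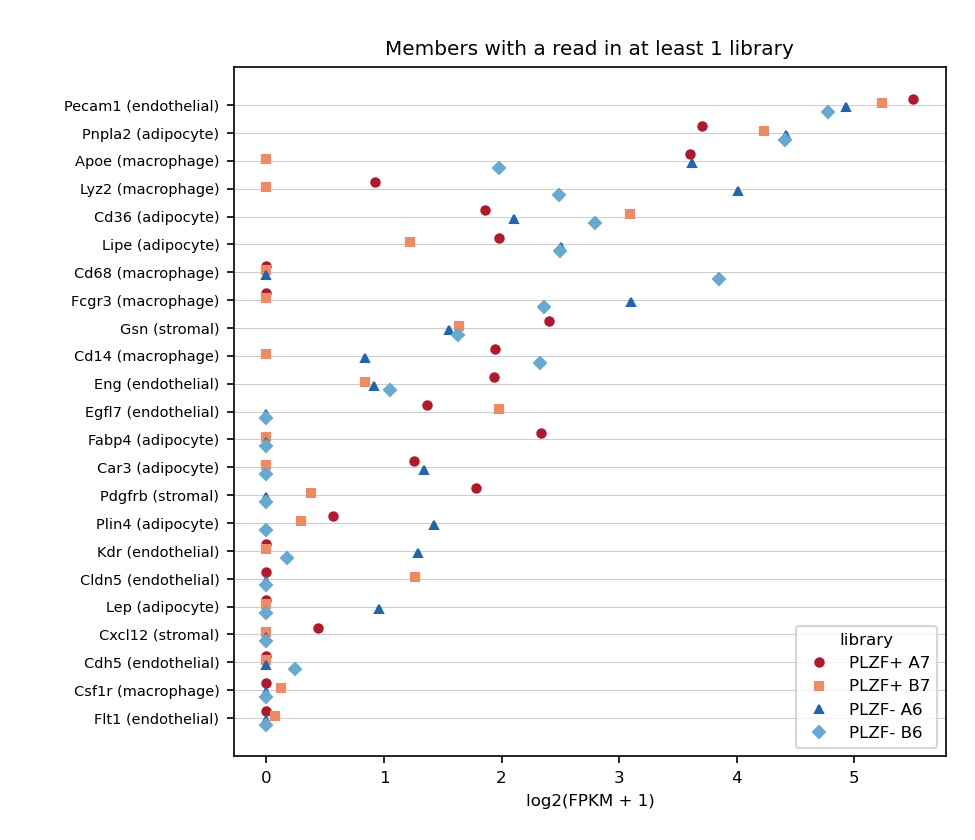
Log2(FPKM + 1) of the 23 members with a read in at least 1 library, one row per gene ordered by mean FPKM with its class in brackets, one symbol per library. Pecam1 and Pnpla2 have the highest means, and 17 of the 23 rows have a symbol at 0 in at least 1 library.

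Pecam1 was the highest member by length-corrected level. It encodes CD31, an adhesion molecule of endothelial junctions that platelets and many leukocytes also carry, and lies on chromosome 11 (106654217 to 106750628). It had 160 and 153 normalized counts in A7 and B7, against 99.5 and 115 in A6 and B6. All PLZF+ values were above all PLZF- values. The log2 fold change of 0.54 (95% interval -0.15 to 1.24) did not pass (adjusted p = 0.372, limma). By FPKM, which corrects for transcript length and depth, PLZF+ libraries averaged 40.5 ± 5.36, against 27.9 ± 2.06 for PLZF- libraries (SD, n = 2 per subset), and its mean level lay above 78.9% of tested genes.

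Genes more particular to vessels gave few reads. Emcn and Esam, which encode endothelial surface and junction proteins, were listed at 0 throughout. Cdh5, which encodes VE-cadherin, had 1 read in B6, and Flt1, a VEGF receptor, had 1 read in B7. Kdr, the main VEGF receptor of endothelium, had 0 and 0 reads in A7 and B7, against 8 and 1 in A6 and B6. Its mean in PLZF- libraries was 4.17 times the worth of 3 reads per PLZF+ library, which rests on A6. The adjusted p of Kdr without a filter was 0.353 (limma). Cldn5, a tight junction gene, had 5 reads in B7 and 0 elsewhere. Egfl7, a secreted endothelial protein that shares its locus with Mir126, had 4 and 3 reads in A7 and B7, against 0 and 0 in A6 and B6. Eng, which encodes endoglin, a co-receptor of the TGF-β family, had 16.1 and 4.46 normalized counts in A7 and B7, against 5.06 and 6.10 in A6 and B6. The PLZF- values of Eng lay between the PLZF+ ones, and its exons overlap those of Fpgs on the other strand. None of those with a read passed without a filter (limma), and no single library held reads of all of them.

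Of the 12 macrophage markers 6 were at 0 in all 4 libraries, and none reached the filter. C1qa, C1qb and C1qc, the 3 chains of complement C1q, Mrc1, the mannose receptor CD206, Cd163, the haemoglobin scavenger receptor, and Fcgr1, the high-affinity IgG receptor, were listed at 0. Csf1r, the receptor of the growth factor on which most macrophages depend, had 1 read in B7 and 0 elsewhere. The other 5 members, the 4 described next and Fcgr3, were higher than that in some libraries. Lyz2, which encodes lysozyme, had 2 and 0 reads in A7 and B7, against 12 and 5 in A6 and B6. Its near-identical neighbour Lyz1 was listed at 0 in all 4. Cd68, a lysosomal glycoprotein, had 18 reads in B6 and 0 in A7, B7 and A6. Apoe, which encodes a lipid carrier, had 31 and 0 reads in A7 and B7, against 9 and 4 in A6 and B6. Its mean of 9.82 normalized counts was the closest to the filter from below, as that of Gsn, 11.0, was from above. Cd14, a co-receptor for bacterial lipopolysaccharide, had 10 and 0 reads in A7 and B7, against 1 and 7 in A6 and B6. Library B7 had none of these 5, and A7 carried more Apoe than either PLZF- library by normalized count (19.2, against 15.2 and 4.88). By FPKM A7 did not exceed A6 (11.1, against 11.3 in A6 and 2.93 in B6).

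Fcgr3 was the one member called in the authors' deposited table. It encodes the low-affinity IgG receptor CD16 of macrophages and natural killer cells, lies on chromosome 1 (171051174 to 171064935) and shares its locus with a glycine tRNA entry. It had 0 and 0 reads in A7 and B7, against 8 and 6 reads in A6 and B6, or 13.5 and 7.32 normalized counts. The 2 subsets did not overlap, and the PLZF- mean was 5.89 times the worth of 3 reads per PLZF+ library. In the authors' deposited table its q-value was 0.00191, and Fcgr3 was 1 call among 6 members with a test there, where 5.73% of 9226 tested loci were called (3.91% as lower and 1.82% as higher in PLZF+ cells). It lay under the filter here. Without a filter its log2 fold change was -3.46 ± 1.17 (SE) and its adjusted p = 0.155 (limma), so the call was not shared between the 2 methods.

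Fcer1g and Tyrobp, genes of receptor signalling, were lower in PLZF+ cells. They reached the filter through the PLZF- libraries alone, so nothing about Fcgr3 is read from their tests. Fcer1g encodes the signalling chain that CD16 needs at the surface. It had 9.29 and 0 normalized counts in A7 and B7, against 170 and 150 in A6 and B6 (log2 fold change -5.65 ± 0.94 (SE), adjusted p = 0.0026, limma). Tyrobp, an adaptor of activating receptors in natural killer and myeloid cells, had 2.48 and 0 normalized counts in A7 and B7, against 258 and 129 in A6 and B6 (log2 fold change -6.62 ± 0.82 (SE), adjusted p = 0.00034, limma). Ncr1 encodes NKp46, found on natural killer and some innate lymphoid cells. In A7 and B7 it had 3.72 and 3.91 normalized counts, against 693 and 694 in A6 and B6. Fcgr2b, an inhibitory IgG receptor of similar sequence, had 1.86 and 0 normalized counts in A7 and B7, against 20.2 and 3.66 in A6 and B6, and reads of near-identical stretches may be split between the receptor genes. In these bulk libraries fewer cells of a type and less RNA per cell cannot be told apart. The part of natural killer, innate lymphoid or dendritic cells in the values of Fcgr3, Lyz2 and Cd68 was not tested.

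**Figure D3:**
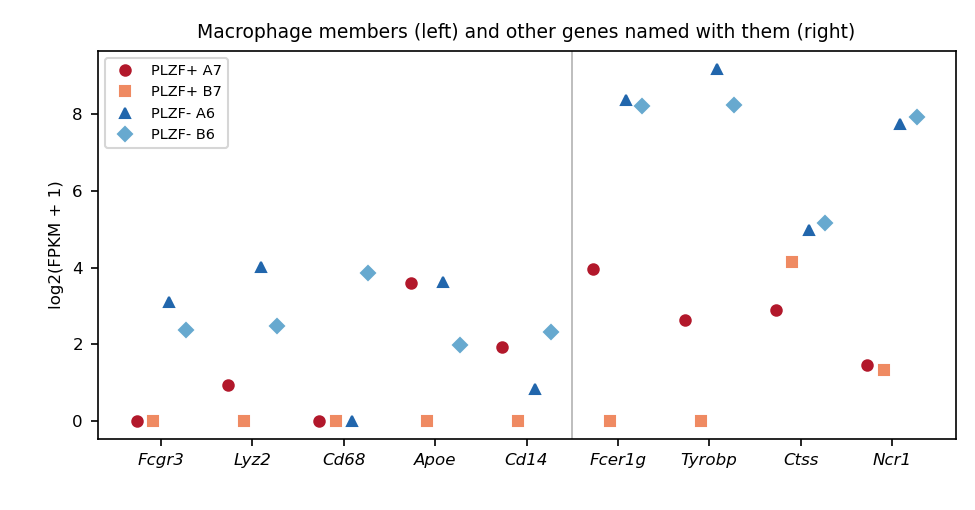
Log2(FPKM + 1) of 5 macrophage members (left of the line) and of Fcer1g, Tyrobp, Ctss and Ncr1 (right of it), one symbol per library. Fcgr3 is at 0 in both PLZF+ libraries, and Fcer1g, Tyrobp and Ncr1 stand far higher in the PLZF- libraries A6 and B6 than in the PLZF+ libraries.

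Across the 49 members, 5 could be tested and none passed. Pecam1, Pnpla2, Cd36, Lipe and Gsn were the members with a mean of at least 10 normalized counts. By limma 0 of the 5 passed at an adjusted p under 0.05, where 7.46% of the 9282 tested genes did, and 0 of the 5 had an unadjusted p under 0.05, against 20.3% of tested genes. Nothing is read from shares of so few members. Without a filter 23 members could be tested and 0 passed by limma, against 3.90% of 15841 genes. Fcgr3, Pdgfrb and Lyz2, 3 of the 23, had an unadjusted p under 0.05, and 15.5% of all genes did. A fold change that fails the threshold is not shown to be 0, and the intervals above reach a log2 fold change of -3.16 for Lipe and 2.72 for Gsn.

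**Figure D4:**
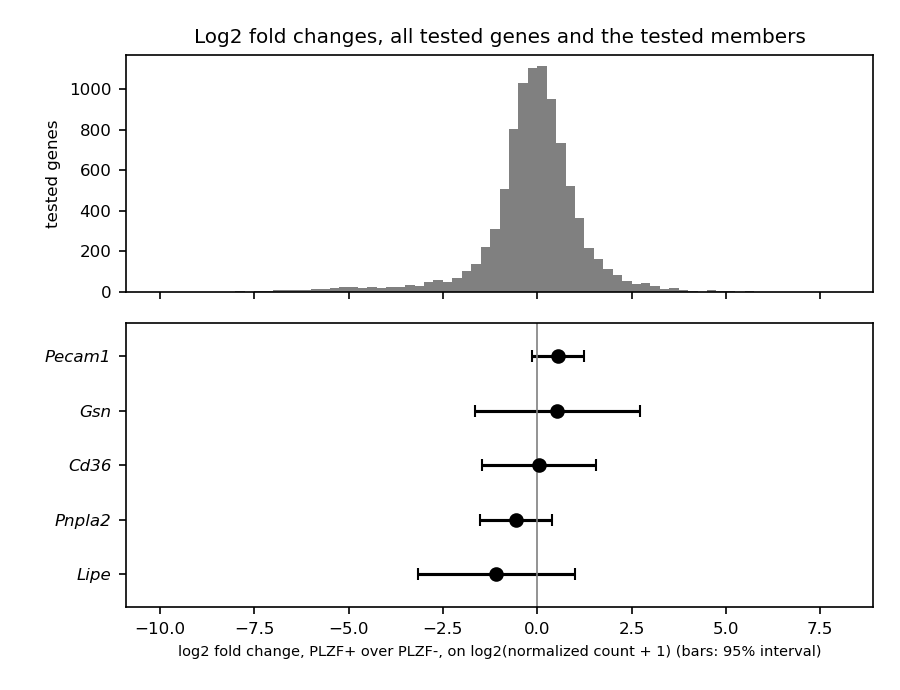
Top, histogram of log2 fold changes (PLZF+ over PLZF-, on log2(normalized count + 1)) of the 9282 tested genes. Bottom, the same quantity for the 5 tested members, points with 95% intervals, every one of which includes 0.

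Summed over a class, the markers took a small part of each library. Adipocyte markers took 66.9 and 101 RPM in A7 and B7, against 106 and 107 in A6 and B6. Endothelial markers took 157 and 143 RPM in A7 and B7, against 94.0 and 103 in A6 and B6. Their 95% Wilson intervals of counting error alone were 140 to 176 and 127 to 160 in A7 and B7, against 74.4 to 119 and 84.7 to 125 in A6 and B6. Those of the adipocyte markers were 56.1 to 79.9 and 88.3 to 116 in A7 and B7, against 85.1 to 132 and 88.3 to 129 in A6 and B6. Reads are not replicates of a subset, so these intervals do not compare the subsets. Pecam1 made up at least 87.7% of the endothelial FPKM in each library, and Pnpla2 51.2% to 66.1% of the adipocyte FPKM. The vessel and fat cell genes at or near 0 added little to either sum.

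Stromal and macrophage sums differed widely between the 2 PLZF+ libraries. Stromal markers took 37.0 and 10.3 RPM in A7 and B7, against 6.72 and 7.13 in A6 and B6, so that A7 stood apart from the other 3. Macrophage markers took 23.4 and 0.491 RPM in A7 and B7, against 40.3 and 40.7 in A6 and B6. The 2 PLZF- libraries were alike, while B7 held 1 macrophage read of 2035066. The log2 ratio of summed macrophage FPKM, PLZF+ over PLZF-, was -2.10, and without A7 it was -8.51, on that single read.

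**Figure D5:**
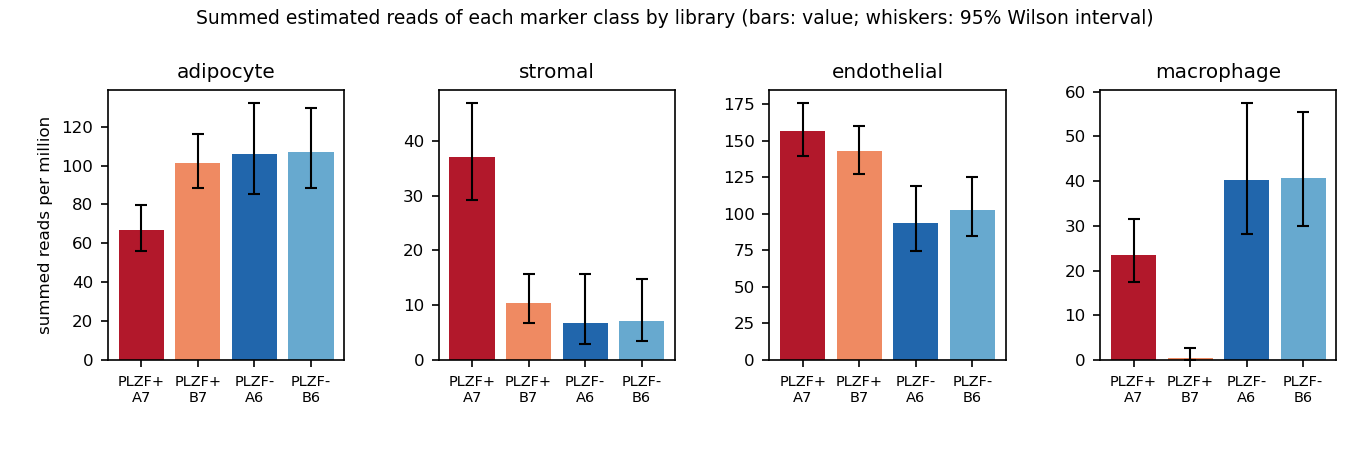
Summed RPM of each marker class (estimated reads scaled to library size), one bar per library, PLZF+ libraries A7 and B7 left of PLZF- libraries A6 and B6, with whiskers for the 95% Wilson interval of counting error. Each panel has its own vertical scale from 0, and the macrophage bar of B7 is near 0.

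T cell genes gave a scale for these sums. The 9 measured T cell identity genes, among them the CD3 chains, Cd247, Il7r and Ptprc, summed to 2407 and 2480 FPKM in A7 and B7, against 1607 and 2015 FPKM in A6 and B6. All 49 markers together summed to 94.1 and 71.3 FPKM in A7 and B7, against 101 and 89.96 FPKM in A6 and B6. That is 3.91% and 2.87% of the T cell sum in A7 and B7, against 6.29% and 4.46% in A6 and B6. The T cell genes moved themselves: 5 of 9 were higher and 2 lower in PLZF+ cells (limma, background 2.47% and 4.99%). Cd3g, a chain of the receptor complex, had 943 and 951 normalized counts in A7 and B7, against 236 and 443 in A6 and B6. Ptprc, the leukocyte phosphatase CD45, had 1233 and 1344 normalized counts in A7 and B7, against 4211 and 3583 in A6 and B6. Of the T cell sum, Ptprc alone was 191 and 174 FPKM in A7 and B7, against 699 and 651 FPKM in A6 and B6. A percentage of that sum is thus a description of each library and no purity.

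Further stromal, endothelial and adipocyte markers were mostly at 0 as well, while most further macrophage markers had a read in at least 1 library. Of 12 further stromal genes 10 were listed at 0 in all 4 libraries, of 10 endothelial genes 8, of 13 adipocyte genes 8 and of 16 macrophage genes 7. None of the stromal or endothelial genes reached the filter; Serpinf1 and Mmp2, and Vwf and Mmrn2, were the ones with reads. The adipocyte genes that did were Fasn, the fatty acid synthase, Acsl1, a fatty acid activating enzyme, and Pparg, the master regulator of fat cell formation, and none passed. Pparg had 2.48 and 2.23 normalized counts in A7 and B7, against 13.5 and 42.7 in A6 and B6 (log2 fold change -2.91 ± 1.17 (SE), adjusted p = 0.186, limma). Cebpa and Adrb3, a transcription factor and the adrenergic receptor of fat cells, were listed at 0. Of the macrophage genes, 2 of 3 tested were lower in PLZF+ cells, Fcer1g and Tyrobp, where 4.99% of all tested genes were lower (limma). Both reached the filter through the PLZF- libraries alone, so nothing is read from this share. Ctss, a lysosomal protease also used by dendritic cells, had 12.4 and 31.8 normalized counts in A7 and B7, against 57.4 and 64.6 in A6 and B6, and did not pass (adjusted p = 0.157, limma). The 7 listed at 0 were Mertk, Timd4, Lyve1, Folr2, F13a1, Trem2 and Ms4a7. The other 9 had reads. Clec10a, a lectin of macrophages and dendritic cells, had 0 and 0 normalized counts in A7 and B7, against 6.75 and 14.6 in A6 and B6. Cx3cr1, the fractalkine receptor, had 16.9 normalized counts in A6 and 0 in A7, B7 and B6. Emr1, which encodes F4/80, had 4.88 and Itgam, which encodes CD11b, 2.44 normalized counts in B6, with 0 in the other libraries. Gpnmb had 0 and 5.02 normalized counts in A7 and B7, against 5.06 and 0 in A6 and B6, and Aif1 had 1.24 in A7 alone. None of these 6 reached the filter.

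Other tissue cells were checked the same way. All 5 genes of epididymal epithelium were listed at 0, as were 4 of 6 mesothelial, 4 of 6 mural and 4 of 5 B cell genes. Of the mesothelial genes Lrrn4 had 8.67 and 30.7 normalized counts in A7 and B7, against 5.06 and 1.22 in A6 and B6 (log2 fold change 2.25 ± 1.31 (SE), adjusted p = 0.368, limma), and Wt1 had 1.69 in A6 alone. Cd79b, the exception among B cell genes, had 33.4 and 29.6 normalized counts in A7 and B7, against 1.69 and 7.32 in A6 and B6 (adjusted p = 0.132, limma). Of 5 loci of red cell genes 2 were listed at 0, and none reached the filter. Those at 0 were Hbb-bt and a locus of Hba-a2 alone, while the locus shared by Hba-a1 and Hba-a2 had reads. Of 6 neutrophil and mast cell genes 3 were listed at 0, the neutrophil genes S100a8, S100a9 and Csf3r. Ms4a2, from the mast cell part of the list, had 12.2 normalized counts in B6 and 0 elsewhere, and did not reach the filter. Plasmacytoid and dendritic genes were all above 0 in at least 1 library, with 5 of 6 lower in PLZF+ cells (limma), against 4.99% of all tested genes. Some, such as Siglech, reached the filter through the PLZF- libraries alone, and the list was chosen with earlier results of these data known. Nothing is read from that share. Cd74, the invariant chain of antigen presentation, had 40.3 and 5.58 normalized counts in A7 and B7, against 283 and 141 in A6 and B6 (adjusted p = 0.012, limma). H2-Aa, a class II chain, had 20.4 and 3.35 in A7 and B7, against 162 and 146 in A6 and B6. Irf8, a transcription factor of dendritic cells, had 4.95 and 16.2 in A7 and B7, against 241 and 159 in A6 and B6. Siglech, a lectin of plasmacytoid dendritic cells, had 0 and 0 normalized counts in A7 and B7, against 145 and 90.2 in A6 and B6. The adjusted p of Siglech was 0.0013 (limma). Cpa3, a mast cell protease, had 73.7 and 17.9 normalized counts in A7 and B7, against 294 and 65.9 in A6 and B6, where A6 stood above the other 3, and did not pass (adjusted p = 0.191, limma). Kit, the stem cell factor receptor, had 18.0 and 12.3 normalized counts in A7 and B7, against 278 and 248 in A6 and B6, and was lower in PLZF+ cells (adjusted p = 0.0001, limma).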

How the data were processed

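Per the submitters' processing notes, HISAT 0.1.6, SAMtools 1.2, Cufflinks 1.2 and Cuffdiff were used, with mm10. No source used here names the annotation or the strand setting. Per the file headers, the authors deposited a Cuffnorm signal of normalized counts, a Cuffnorm FPKM table and a Cuffdiff table, whose p-values and q-values were used. The direction of its calls came from subset means of FPKM. Values under 0.001 were set to 0, overlapping loci of one name summed and Rn45s left out. The smallest of the 6 commonest low values of a library was taken as 1 read, and between 92.4% and 94.2% of values were whole reads to within 0.05. The test was limma 3.58.1 (R 4.3.3) with trend and robust moderation, run two-sided on log2 of the normalized count plus 1 for genes averaging 10 or more. P-values were Benjamini-Hochberg adjusted over all tested genes, and 0.05 was the limit for a call. The added 1 makes fold changes of low genes look smaller. Python 3.11.15 with pandas 2.3.3 and matplotlib 3.10.9 did the rest. Fits were tested on simulated data. Positions are from GENCODE M21 (GRCm38, the assembly of mm10). Ratios to 3 reads per library allow for counting error in the subset at 0 but not in the other. They are therefore not lower bounds of a fold change. Wilson intervals cover counting error only, and are too narrow even for that, since PCR copies are not independent. Limma p-values measure the spread between libraries, and whether libraries share mice is unknown.

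All members are given, and of companion lists their counts, up to 3 genes of the highest mean FPKM, the housekeeping genes, and Zbtb16. The T cell genes are given as a sum, with values of Cd3g and Ptprc. Other genes named (such as Ncr1, Fcgr2b, Lyz1 and Siglech) were picked after their values were seen. The members and lists were chosen with earlier results of these data known. Trdc, of the T cell list, was not analysed here.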

Additional observations from a re-analysis of the deposited data

How the results depend on the processing

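No member passed under any setting run (a pseudocount of 4 or 0.25, dropping the filter or raising it to 50, scaling by median ratios or to equal totals, FPKM as input, leaving out a library, plain limma, separate loci, and a block by column letter), with 0 called in each direction. Over the settings that gave each gene a value, the adjusted p of Pecam1 was 0.256 to 0.768, of Pnpla2 0.463 to 0.910, of Cd36 0.751 to 0.990, of Lipe 0.352 to 0.886 and of Gsn up to 0.993. The filter of 50 kept Pecam1 and Pnpla2 but not Cd36, Lipe or Gsn, and separate loci gave Pecam1 no single value. The log2 fold change of Cd36 was 0.05 as reported, turned to -0.70 without B7 and to -0.35 without A6, and was 0.79 without A7. Over all genes, leaving out a library gave 20 to 245 higher and 100 to 266 lower, and plain limma, with neither trend nor robust moderation, gave 28 higher and 186 lower. Equal totals moved the median log2 fold change of all genes to 0.08, against -0.03 as reported. The log2 ratio of summed FPKM was -0.33 for adipocyte markers (-0.43 to -0.24 with a library left out), 1.23 for stromal (0.25 to 1.81), 0.61 for endothelial (0.49 to 0.71) and -2.10 for macrophage markers (-8.51 to -1.11). Without Pnpla2 the adipocyte ratio was -0.15, and without Pecam1 the endothelial ratio was 1.36. Without Gsn the stromal ratio could not be computed, since PLZF- libraries were then at 0. The cause of these shifts was not tested. Count tests on recovered reads were not run, because too few values were whole. The columns carry no replicate number, so the planned pairing by number was not run. The codes share a letter (A6 with A7, B6 with B7) whose meaning no label gives. A replicate block by that letter, chosen after seeing the data, gave 426 higher and 694 lower genes. The A minus B differences of the subsets correlated at 0.07 across 9282 genes, which are not independent replicates. That value cannot decide whether the letter marks a pairing, which stays unknown, and the reported fit has no block. Depth limits the PLZF- libraries most, where 1 read is worth most.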
